A study of Mus musculus with 2 samples.

Results

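Cells with the highest share of RNA from Chrm3, Galnt13, Rbfox1, Sh3rf3, Brinp3 and Ednra were followed in MC38 tumors, untreated or injected with the STING agonist MSA-2. They were 1129 of 7532 filtered cells, themselves drawn from 29003 cell barcodes of 2 libraries. The members were chosen by measured values: they are the top 15% of filtered cells, both libraries pooled, by the summed share of UMIs (unique molecular identifiers, 1 per captured RNA molecule) that the 6 genes take. The levels of these 6 genes in members are therefore a description of the choice and support nothing. A filtered cell has at least 8000 UMIs, at most 20% mitochondrial UMIs, under 0.03% of UMIs from Ptprc, Tyrobp, Fcer1g and Cd3e, under 0.1% from Col1a2 and Dcn, and at most 1 UMI from Cdh5 and Cldn5. The first gene set marks immune cells, Col1a2 and Dcn mark fibroblasts, and Cdh5 with Cldn5 marks endothelium.

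MC38 is a mouse colon carcinoma line, grown here under the skin of mice. Tumors received MSA-2, or a saline vehicle with 10% DMSO, into the tumor as 3 doses 3 days apart, and 3 mice were pooled for each of the 2 libraries. The labels call the control library untreated, the series design gives it the vehicle, and the methods describe the cells as sorted without naming the sort and call the retained cells immune cells. The methods give C57BL/6 mice of 6 to 8 weeks, both sexes being used for MC38 tumors, and name no transgene. Which sex went into each pool is not stated.

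With 1 pooled library per condition there is no replicate error, so treatment and library cannot be told apart. Intervals below are 95% intervals that cover counting error only. The median barcode carried 8661 UMIs in the MSA-2 library and 8372 in the untreated library. The libraries share 53 barcode sequences, 4 of them among filtered cells.

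Several of the 6 genes are best known from nerve and muscle. Chrm3 encodes the M3 muscarinic acetylcholine receptor and Ednra the endothelin A receptor, which both signal through the G protein Gq to phospholipase C beta and calcium release. Galnt13 encodes an enzyme that starts O-linked sugar chains on proteins, Rbfox1 a splicing regulator, Sh3rf3 a ubiquitin ligase that scaffolds JNK signaling, and Brinp3 a protein of a family described in neurons. STING is the sensor adaptor that MSA-2 activates, and its best known output is type I interferon.

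Members made up 725 of 2780 filtered cells in the MSA-2 library, or 26.1% (24.5% to 27.8%, Clopper-Pearson). They made up 404 of 4752 in the untreated library, or 8.50% (7.72% to 9.33%). The share was 3.07 times as high after MSA-2, a log2 ratio of 1.62. The log2 ratio was 1.36 with cells thinned to 8000 UMIs before ranking (19.6% of cells then pass) and 1.42 without Galnt13. With equal weight per gene it was 2.25. With Col1a2 and Dcn allowed up to 0.5% of UMIs, an alternative chosen after seeing the data, it was 4.83 (28.1% against 0.988%). Since the members' limit was set on both libraries together, the size of the ratio follows from where it lies.

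The limit sits low in the counts. The lowest member had 0.00729% of its RNA from the 6 genes, 1 UMI of 13725, and the highest filtered cell just outside had 0.00728%, 3 UMIs of 41222. Within 10% of the limit lay 281 filtered cells. The median member had 3 UMIs of the 6 genes after MSA-2 and 2 in the untreated library, and membership rested on 1 UMI in 106 and 108 cells. Many members therefore cannot be told from their neighbours at this depth, and the group is better read as a range than as a boundary.

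The members of the 2 libraries differed in how many of the 6 genes they carried together. After MSA-2, 262 of 725 members (36.1%) had a UMI from 3 or more of the genes. Of untreated members, 12 of 404 (2.97%) did. Members with 4, 5 and 6 of the genes numbered 85, 25 and 7 after MSA-2, and none of the untreated members had 4 or more. Members with at least 5 UMIs spread over at least 3 genes numbered 201 after MSA-2 and 6 in the untreated library. The cells were chosen by these same UMIs, so the counts describe the choice.

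**Figure D1:**
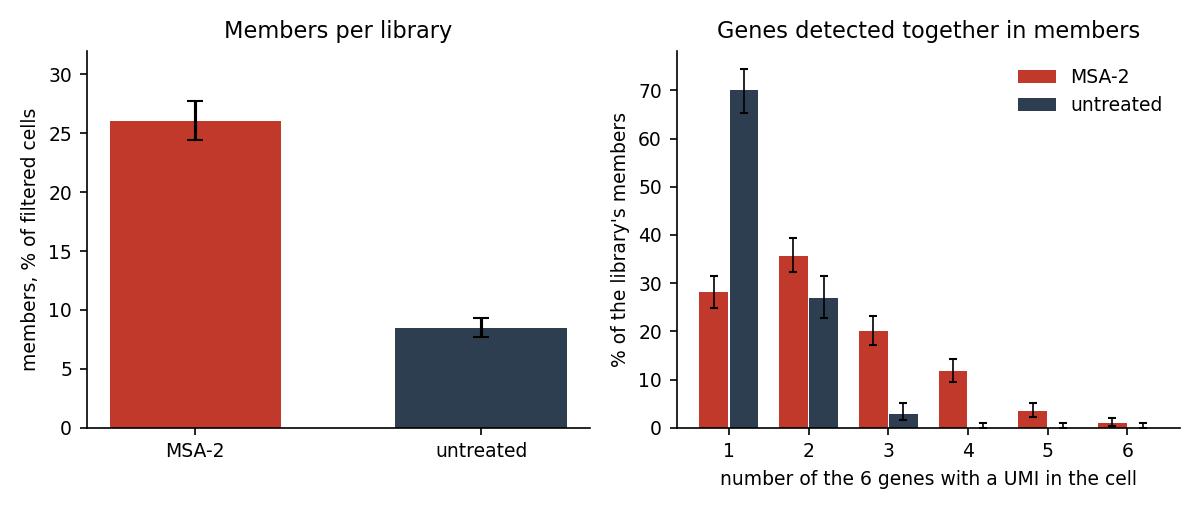
Left, members as a percentage of the filtered cells of each library. Right, the percentage of each library's members (725 after MSA-2, 404 untreated) with a UMI from 1 to 6 of the genes. Bars are shares and whiskers 95% Clopper-Pearson intervals for counting error. The MSA-2 members spread to 6 genes, while 283 of the untreated members have 1 gene.

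The receptors come first. Levels are in CPM, UMIs of a gene per 1000000 UMIs, summed over the cells of a group. Chrm3 stood at 24.0 CPM in MSA-2 members and 1.85 CPM in the other filtered cells of that library. Untreated, Chrm3 was at 1.20 CPM in members, 10 UMIs in 5 cells, and at 0.0517 CPM in the others. The others' level rests on 6 UMIs. Ednra stood at 28.4 CPM and 3.28 CPM in members and others after MSA-2, and at 25.5 CPM and 1.15 CPM in the untreated library.

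Brinp3 was also low in untreated filtered cells. It had 19.4 CPM in MSA-2 members and 0.970 CPM in the others, against 0.719 CPM (6 UMIs) and 0.121 CPM in the untreated library. Rbfox1 had 20.4 CPM and 1.89 CPM after MSA-2, and 13.2 CPM and 0.491 CPM in the untreated library. All 6 are rule genes, so the levels given here for each of them describe the choice.

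Galnt13 and Sh3rf3 supplied most of the UMIs. Galnt13 stood at 79.0 CPM in MSA-2 members and 5.60 CPM in the others, and at 26.0 CPM and 2.05 CPM in the untreated library. Sh3rf3 was nearly as high in members of either library, 67.7 CPM after MSA-2 and 71.2 CPM untreated, with 8.15 CPM and 5.84 CPM in the others. Of the 4060 UMIs of the 6 genes in MSA-2 members, Galnt13 gave 33.1% and Sh3rf3 28.3%, against 10.0% for Chrm3 and 8.55% for Rbfox1. Of 1150 in untreated members, Sh3rf3 alone gave 51.7%. Members of both libraries are in large part cells with a Sh3rf3 UMI, 284 of 404 untreated and 475 of 725 after MSA-2.

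The working name of the group, a Chrm3 and Rbfox1 tumor state after MSA-2, holds only in part. Chrm3 was detected in 181 and Rbfox1 in 158 of the 725 MSA-2 members, against 475 for Sh3rf3 and 459 for Galnt13, and 404 members come from the untreated library. The epithelial markers Krt8, Krt18, Krt19, Krt7, Epcam and Cdh1 summed to 0.765 CPM in MSA-2 members and 1.004 CPM in the others, with 2 of the 6 at 0 in members. No marker here shows a tumor cell identity, other types' markers being limited by the filter and not absent, and the cells are called by the 6 genes. Neuron markers were near 0 as well: of 4, 3 had no UMI in MSA-2 members, and Syt1 had 1.71 CPM.

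Sex-linked RNA gives a separate view of where the cells come from, though the sex of the pooled mice is not known. The Y-linked genes Ddx3y, Uty and Eif2s3y summed to 4.77 CPM in MSA-2 members and 4.95 CPM in the other filtered cells. They summed to 114 CPM in immune barcodes and 89.3 CPM in fibroblast barcodes of the same library, defined by at least 0.3% of UMIs from the immune genes and at least 1% from Col1a2 and Dcn. In the untreated library the sums were 6.60 CPM in members, 6.92 CPM in others, 184 CPM in immune and 139 CPM in fibroblast barcodes. Members sit with the other filtered cells in this respect and far below host-like barcodes.

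Free RNA in droplets can add a UMI to any cell, so detection was compared at equal depth with immune barcodes, taken as a background without a test that they lack each gene. After thinning each cell to 8000 UMIs, Galnt13 was found in 39.0% of MSA-2 members (median depth before thinning 20235 UMIs) and in 2.09% of 191 immune barcodes (median 9785). Other filtered cells (median 26358) had 3.84%. For Chrm3 the shares were 11.0% in members, 2.09% in immune barcodes and 1.07% in other filtered cells. For these 2 genes the other filtered cells lie within the counting intervals of immune barcodes, while Brinp3, in 0.876% of them, lies below the 1.16% to 6.71% of immune barcodes. Untreated, Galnt13 was in 1.31% of other filtered cells (median 24400.5) and 0.140% of 713 immune barcodes (median 9573). Rbfox1 ran the other way, 0.207% and 1.96%, and so did Chrm3, 0.0920% and 0.561%. Immune barcodes are therefore not a clean background for each gene, and members lie above the other filtered cells by the choice itself. Summed over the 6 genes, immune barcodes had 27.0 CPM after MSA-2 and 6.25 CPM untreated, and 19.4% and 4.91% of them reached the limit. Fibroblast barcodes had 90.7 CPM and 60.8 CPM, and 34.9% and 25.8% reached it. Brinp3 alone stood at 16.4 CPM in fibroblast barcodes after MSA-2 and at 24.4 CPM (45 UMIs) untreated, where Chrm3 had 1.63 CPM on 3 UMIs. Those 45 UMIs came from 8.33% of the 132 untreated fibroblast barcodes. Brinp3 was thus not low in all untreated barcodes, though few of them carried it.

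How far each gene follows the other 5 describes the choice further, since the 6 were picked as markers in these same data. Filtered cells of each library were ranked by 5 genes and the sixth was read in the top 15% and in the rest. In the MSA-2 library Chrm3 stood at 33.1 CPM in the 417 top cells and at 3.13 CPM in the rest. Brinp3 stood at 26.4 CPM and 2.12 CPM, the widest ratio of the 6 (log2 3.64, 3.33 to 3.95). Sh3rf3 had the narrowest, 75.6 CPM and 14.1 CPM (log2 2.42, 2.28 to 2.56). The genes were chosen together, so these ratios describe the size of their overlap and support nothing.

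The same reading of the untreated library gave 12.9 CPM and 9.68 CPM for Sh3rf3, 5.56 CPM and 3.37 CPM for Galnt13, and 4.53 CPM and 2.52 CPM for Ednra. For Rbfox1 the levels were 5.01 CPM and 0.810 CPM. Chrm3 (6 and 10 UMIs) and Brinp3 (2 and 18 UMIs) were too rare to read. These levels describe the choice as well. Of the untreated top cells ranked for Sh3rf3, 82 had no UMI of the other 5. Across single cells the pairs were only weakly related, with a median Spearman correlation of 0.15 over 15 pairs in 2780 MSA-2 cells and 0.02 in 4752 untreated cells, all cells sharing depth and library.

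**Figure D2:**
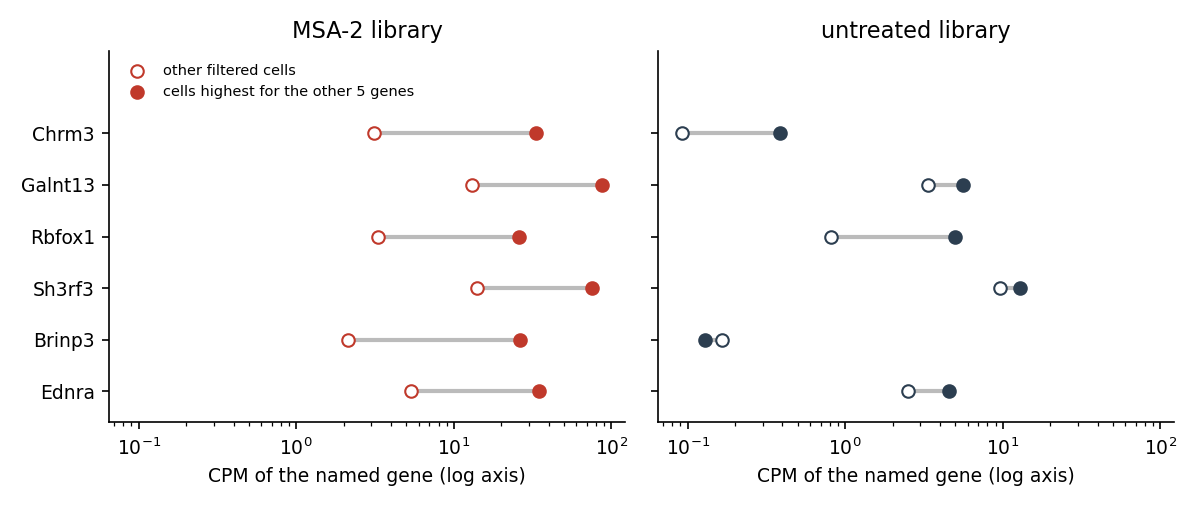
CPM of each gene (log axis) in the cells of a library that rank in the top 15% by the other 5 genes (filled points) and in its other filtered cells (open points). After MSA-2 the filled points lie above the open ones for each gene, from 25.8 CPM for Rbfox1 to 86.8 CPM for Galnt13. The untreated gaps are smaller for Galnt13, Sh3rf3 and Ednra, and Brinp3, on 2 and 18 UMIs, lies the other way.

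A part of the members also group without the 6 genes. Leiden clustering of the 2780 filtered MSA-2 cells on 2000 variable genes, with the 6 left out, gave 15 clusters. A cluster of 279 cells held 241 members (86.4%, 81.8% to 90.2%), which is 33.2% of all MSA-2 members. Its 6 genes summed to 399.7 CPM. A cluster of 137 cells, led by Fabp4, Hp, Klk8 and Cd74, held 51.1% members with 97.9 CPM, and in the other 13 the share ran from 4.76% to 31.7%. The 2 clusters richest in members also had the highest median share of Col1a2 and Dcn, 0.0772% and 0.0736% of UMIs. In the other 13 this median ran from 0.0170% to 0.0533%. The part of Dcn-bearing barcodes in the grouping was not tested. The remaining members lie scattered through the rest of the filtered cells.

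**Figure D3:**
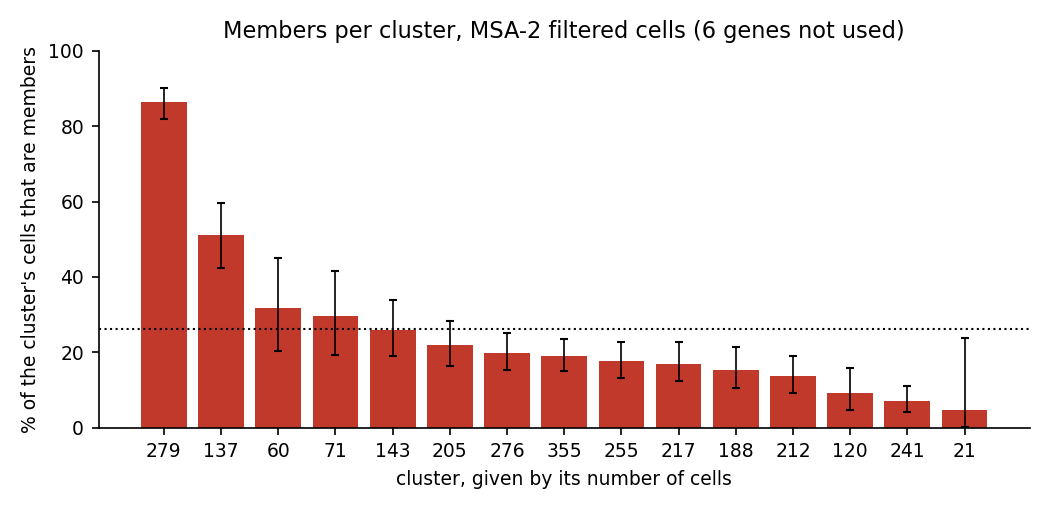
Percentage of members in each of the 15 clusters of filtered MSA-2 cells, each bar marked with its number of cells, with 95% Clopper-Pearson whiskers for counting error; the dotted line is the share in all these cells, 26.1%. The cluster of 279 cells stands at 86.4%.

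Across genes, members were set against the other filtered cells of the MSA-2 library by the log2 ratio of CPM with 1 CPM added. Genes with at least 10 CPM were taken, and a log2 ratio of 0.58 in either direction was called. Of 7954 genes, 280 (3.52%) were higher in members and 19 (0.239%) lower, 299 (3.76%) in either direction, with a median of 0.06. The rule used this contrast, so nothing is read from the counts. With edgeR's TMM scaling the split was 129 higher and 61 lower, and the median of all genes moved by -0.13.

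In the untreated library 637 of 7989 genes (7.97%) were higher in members, 14 (0.175%) lower and 651 (8.15%) either. Of 7649 genes taken in both libraries, 250 were higher in MSA-2 members, 604 in untreated members and 139 in both, which is 55.6% of the first and 23.01% of the second list. Lower genes numbered 19 and 11, with 2 shared. The called genes thus overlap in part, and whether the 2 contrasts differ was not tested.

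Of the 6 genes, Galnt13 (log2 ratio 3.60) and Sh3rf3 (2.91) passed 10 CPM and led the list. Gas7, an adaptor of the actin cytoskeleton, came next with 78.5 CPM in members and 15.4 CPM in others (2.28). Klk8, a secreted serine protease first described in brain, had 30.6 CPM and 6.06 CPM (2.16). Grb10, which binds the insulin receptor, had 32.2 CPM and 7.26 CPM (2.01). The untreated Gas7 ratio was 1.08 and the Grb10 ratio 0.82, both on fewer UMIs, while Klk8 had 2 UMIs in untreated members and 45 in the others.

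Plcb1 encodes a phospholipase C beta that Gq activates, and a link to the receptors in these cells was not tested. It stood at 201 CPM in MSA-2 members and 51.7 CPM in others (1.94), and at 85.4 CPM and 35.0 CPM in the untreated library (1.26). Pcdh9, a protocadherin (1.70), Hgf, the growth factor that binds Met (1.66), Hs3st5, a heparan sulfate sulfotransferase (1.55), and Has2, a hyaluronan synthase (1.48), were higher as well. Their untreated ratios were 1.11, 1.23, 1.42 and 1.01. These 4 genes were past the fold in members of both libraries.

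Also among the 14 highest genes were the Notch coactivator Maml3 (1.53), the zinc finger genes Glis3 (1.49) and Zfp280c (1.46), and Vav3 (1.43), a signaling protein of the cytoskeleton. In untreated members Zfp280c had 0.26, under the fold, and the other 3 had 0.73 to 1.32. Of the 12 leading genes outside the rule, 6 were higher in fibroblast or immune barcodes of the MSA-2 library than in members. In fibroblast barcodes Gas7 stood at 93.3 CPM, Grb10 at 64.9 CPM, Has2 at 89.3 CPM and Glis3 at 408 CPM, against 89.2 CPM of Glis3 in members. In immune barcodes Maml3 stood at 95.2 CPM and Vav3 at 218 CPM, against 86.4 CPM and 69.9 CPM of Maml3 and Vav3 in members. Gas7 was at 73.1 CPM there. In the 3693 MSA-2 barcodes that fail the limit on Col1a2 and Dcn alone, with 0.1% to 1% of UMIs from them, each of the 12 was higher than in members. Plcb1 stood at 294 CPM there, Pcdh9 at 422 CPM and Klk8 at 54.9 CPM. The leading genes are thus not particular to members.

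The 10 lowest genes were shifted less. Igkc had -1.71, but 901 of the 1176 Igkc UMIs in the other cells came from 1 cell, and without the 5 highest cells of each group the levels were 4.77 CPM in members and 4.52 CPM in others. The rest ran from Gm41724 at -0.88 through Ogn (-0.86), Krt14 (-0.84), Tex101 (-0.84), Gm45589 (-0.79), Cth (-0.76), Car6 (-0.75) and Mgarp (-0.74) to Gng10 at -0.71. Krt14 is a keratin that marks another subset of these filtered cells.

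**Figure D4:**
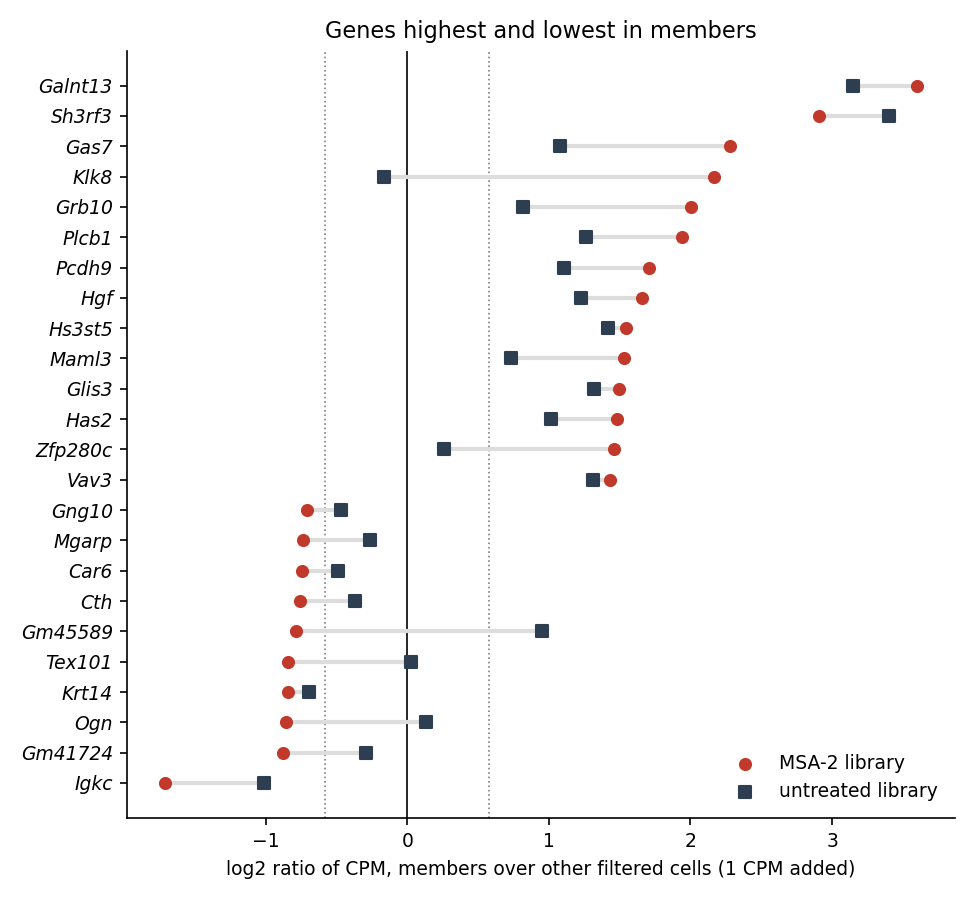
log2 ratio of CPM, members over other filtered cells, for the 14 highest and 10 lowest genes of the MSA-2 library (circles) and the same genes in the untreated library (squares); dotted lines mark 0.58 in either direction. Klk8, Ogn, Tex101 and Gm45589 lie on opposite sides of 0 in the libraries, Klk8 on 2 UMIs in untreated members.

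The leading genes outside the rule were also higher in the members with the least evidence. In the 204 MSA-2 members with 1 of the 6 genes, 12 of the 12 among the 14 highest were past the fold against other filtered cells, with a median log2 ratio of 1.35. In the 84 members whose single gene was Galnt13 the count was 12 of 12, in the 73 with Sh3rf3 12 of 12 and in the 20 with Ednra 10 of 12. Plcb1 (0.32) and Has2 (0.46) were under the fold in the 20 with the receptor gene Ednra. Plcb1 had 1.46 in the 84 with Galnt13 and 1.61 in the 73 with Sh3rf3. All genes were called more often in such small, shallow groups: 14.3% of genes taken were higher and 2.68% lower in members with 1 gene. The shares were 14.5% and 3.34% in the 84 with Galnt13, 17.5% and 7.30% in the 73 with Sh3rf3, and 18.5% and 19.8% in the 20 with Ednra. Members with 2 genes had 12 of 12, beside 1.91% of all genes, with a median of 1.24, and members with 3 or more had 12 of 12, beside 4.17%, with a median of 1.92. The median thus did not rise from 1 gene to 2. These 12 genes were picked in the same cells, so the counts describe how evenly the difference is spread.

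Plcb1, Gas7, Klk8 and Has2 rose at each step from 1 gene to 3 or more, which most leading genes did not. Has2 ran 48.1, 59.0 and 72.0 CPM over these steps in the MSA-2 library. Plcb1 stood at 53.8 CPM in MSA-2 cells without a UMI of the 6 genes, 49.98 CPM in cells with UMIs under the limit, and 141 CPM, 155 CPM and 259.6 CPM in members with 1, 2 and 3 or more genes. Gas7 ran 14.5, 16.1, 49.03, 53.6 and 109 CPM over the same steps, and Klk8 5.0003, 6.92, 15.8, 25.4 and 40.3 CPM. From members with 1 gene to members with 2, Pcdh9 fell from 177 CPM to 157 CPM and Zfp280c from 56.6 CPM to 36.5 CPM, and Hgf, Hs3st5, Maml3, Glis3, Vav3 and Grb10 fell as well. All of these were highest in members with 3 or more genes. Plcb1 also rose in the untreated library, over 35.01, 34.99, 78.7, 84.4 and 187 CPM. Klk8 stayed there at 0 to 0.407 CPM in the 5 groups, and Gas7 at 3.05, 3.63, 3.53 and 7.99 CPM in the first 4. The 12 untreated members with 3 or more genes had Gas7 at 68.9 CPM on 25 UMIs.

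Most listed genes for acetylcholine and endothelin signaling were under 10 CPM in filtered cells. Ligand RNA was not read in the barcodes that the filter leaves out. Of 16 genes for acetylcholine and endothelin signaling, which include the rule genes Chrm3 and Ednra, 1 reached 10 CPM over the filtered MSA-2 cells. This was Ece1, which cuts endothelin precursors, with a ratio of 0.22. Chat, which makes acetylcholine, and Slc18a3, which packs it, had no UMI in members, and Edn1 had 0.235 CPM. Ednrb, the other endothelin receptor, had 0.765 CPM in members and Chrm1, Chrm2, Chrm4 and Chrm5 at most 0.235 CPM. Among members, RNA for the receptors' ligands was near 0 or not detected at this depth.

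The Gq relay had 3 of 12 genes past the fold and none lower, with a median of 0.10 beside 0.06 and 3.52% higher for all genes. Besides Plcb1 these were Gnaq, the Gq subunit (0.61, under the fold with TMM scaling), and Prkca, a calcium-dependent kinase (0.77). The untreated library had 7 of 13 higher, beside 7.97% of all genes. Genes for O-glycan initiation had 1 of 6 higher (Galnt13, a rule gene), splicing regulators 0 of 10, and the BRINP and SH3RF families 2 of 2, the rule gene Sh3rf3 and Sh3rf1 (0.58, under the fold with TMM scaling). The calls of the rule genes were fixed by the choice. The list of long neural genes had 3 of 5 higher, Pcdh9, Rbms3 (1.29) and Magi2 (0.64, under the fold with TMM scaling), with a median of 0.64, and 4 of 5 untreated (0.96). Of all genes taken with 300 kb or more, 54 of 205 were higher after MSA-2 and 129 of 204 untreated.

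Interferon and antigen presentation lists were near the background after MSA-2, which is 3.76% of all genes past the fold in either direction. Of 35 interferon-stimulated genes none passed the fold in either direction, with a median of 0.00, and of 13 genes for MHC class I presentation none did (-0.03). Untreated, 6 of 34 interferon-stimulated genes were higher (0.28), beside 7.97% of all genes, and 1 of 13 for MHC class I (0.06). The cGAS-STING list had 0 of 6 past the fold (0.21). It lacked STING itself, which the files hold as Tmem173 and which was looked up later: it had 3.35 CPM in members and 4.05 CPM in others after MSA-2, and 5.64 CPM and 4.95 CPM untreated. NF-kB and inflammatory genes had 1 of 16, the chemokine Ccl7, at 920 CPM in members and 468 CPM in others (0.97, against 0.07 in the untreated library), and 3 of 13 untreated. With lists this short, the MSA-2 counts are close to what the background share would give.

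Cell cycle and stress lists were near the background too after MSA-2. S phase genes had 0 of 23 (0.05), G2 and mitosis genes 0 of 22 (-0.12), hypoxia and glycolysis 0 of 19 (-0.16), ATF4 stress 0 of 13 (-0.23), p53 targets 0 of 13 (0.01) and immediate-early genes 0 of 12 (0.04). Untreated, immediate-early genes had 2 of 12 higher (0.33), and each of the other 5 lists at most 1 in each direction. Mesenchymal genes had 2 of 10 higher, Zeb1 (0.68) and the integrin Itga5 (0.67), both under the fold with TMM scaling, with a median of -0.03. Matrix and basement membrane genes had 0 of 10 past the fold in the MSA-2 library (0.19), beside 3.76% of all genes in either direction. In the untreated library 5 of 9 were higher (0.60), beside 7.97% of all genes, Tnc the highest there (1.84). Nuclear-retained RNA had 0 of 2 (0.20) against 2 of 2 higher untreated (1.06), beside the same shares. Markers of other subsets had 1 of 3 lower after MSA-2, Krt14, beside 0.239% of all genes, and no epithelial gene reached 10 CPM. In untreated members 3 of 5 such subset markers were higher, Enpp2 (1.47), Csmd3 (1.05) and Aspn (0.66), and Krt14 was lower (-0.69), with a median of 0.66. Of all genes in that library, 7.97% were higher and 0.175% lower. TMM scaling lowers these ratios by about 0.13, so list medians between 0 and that size turn negative under it, and 7 of the listed genes are then higher and 7 lower. Over all lists, as first scaled, 12 of 232 genes were higher and 1 lower after MSA-2, and 38 and 3 of 227 in the untreated library. All genes taken had 3.52% higher and 0.239% lower after MSA-2, and 7.97% and 0.175% untreated. The list counts of higher genes include the rule genes Galnt13 and Sh3rf3 after MSA-2 and Sh3rf3 untreated.

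Members of the 2 libraries were also compared with each other, a difference in which treatment and library cannot be told apart. Of 8228 genes 592 (7.19%) were higher and 799 (9.71%) lower after MSA-2, 1391 (16.9%) in either direction. In other filtered cells 403 of 7966 (5.06%) were higher, 568 (7.13%) lower and 971 (12.2%) either. TMM scaling turned the split within members to 789 higher and 613 lower, so its direction depends on the scaling. Of the interferon-stimulated genes 26 of 35 were higher in members, with a median of 0.90, against a median of 1.39 in the other filtered cells.

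The 8 highest genes in that comparison include 3 from the neutrophil list, S100a9, S100a8 and Retnlg. S100a9 stood at 264 CPM in MSA-2 members and 0.959 CPM in untreated members (log2 7.08), S100a8 at 161 CPM and 0.360 CPM on 3 UMIs (6.89, counting interval without the added CPM 7.25 to 11.08), and G0s2 at 64.8 CPM and 0.240 CPM on 2 UMIs. Retnlg had 53.5 CPM after MSA-2 and no UMI in untreated members, where 3 UMIs would be 0.360 CPM. The neutrophil list (4 of 4 genes at 1 CPM or more, S100a9 the most abundant) summed to 482 CPM in MSA-2 members and 396 CPM in the others, against 2.28 CPM and 4.08 CPM untreated, and its part in these results was not tested. A cluster of 60 filtered MSA-2 cells, 31.7% of them members, was led by Il1b, G0s2 and Cxcl3, with S100a9 at 1767 CPM against 182 CPM in the rest. The acute-phase genes Saa3 (5.09) and Lcn2 (4.84), the interferon-induced Slfn4 (4.65) and Klk8 (4.67, 2 UMIs untreated) completed the 8. In other filtered cells the ratios were 5.30 for Saa3, 5.14 for Lcn2, 4.41 for Slfn4 and 6.12 for S100a9, so most of these differences are not limited to members, while Klk8 had 2.35 there.

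Among the 8 lowest were the class II antigen presentation genes H2-Eb1 (-4.38), H2-Aa (-4.31), H2-Ab1 (-3.93) and Cd74 (-3.64), then Cilp (-3.82), S100a16 (-3.77), Aspn (-3.32) and Csmd3 (-3.26). The myeloid list and the T and NK list moved the same way, while the neutrophil list moved the other way, as given above. The myeloid list (5 of 5 genes at 1 CPM or more, C1qa the most abundant) summed to 77.8 CPM in MSA-2 and 237 CPM in untreated members, and 70.5 CPM and 221 CPM in the others. The T and NK list (1 of 5 genes at 1 CPM or more after MSA-2, 5 of 5 untreated, Nkg7 the most abundant) summed to 3.30 CPM and 16.8 CPM in members, and 2.96 CPM and 15.5 CPM in the others. The part of immune RNA in these ratios was not tested. The 8 ratios in other filtered cells had the same sign. They were close to those in members for H2-Eb1 (-4.29) and Cd74 (-3.57), and smaller for Cilp (-1.74), S100a16 (-2.26), Csmd3 (-2.08) and Aspn (-2.81). These 4 genes were high in untreated members, S100a16 at 45.6 CPM against 23.9 CPM in the other untreated cells, Aspn at 55.9 CPM against 34.99 CPM, Cilp at 45.4 CPM against 10.5 CPM, and Csmd3 at 105 CPM against 50.1 CPM.

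Members were shallower than the cells they were compared with. The median was 20235 UMIs in MSA-2 members and 26358 in the others, and 17030 and 24400.5 in the untreated library. Members were 44.3% of MSA-2 cells with 8000 to 12000 UMIs and 18.4% of those with 48000 or more. In the untreated library the shares were 20.4% and 3.77%. Within each bin the MSA-2 share was the higher. Ranking by a share can favour shallow cells when 1 UMI can pass. The summed CPM of the rule genes, which does not depend on the members' limit, was also higher in the shallow cells. It was 162 CPM at 8000 to 12000 UMIs and 52.7 CPM at 48000 or more after MSA-2, and 35.7 CPM and 15.3 CPM untreated. How much of the fall in member shares comes from the ranking was not tested. The 262 members with 3 or more genes had a median of 26353 UMIs, close to that of the others.

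At equal depth members had more genes, a median of 2904 per 8000 UMIs against 2790 in the others. Without matching for depth, median mitochondrial UMIs were 3.30% and 2.82%, ribosomal protein UMIs 20.9% and 23.1%, and nuclear-retained RNA 0.473% and 0.336%. Matching the others to the members' UMIs per cell cut the mean mitochondrial difference from 0.564 to 0.0918 percentage points and the nuclear-retained difference from 0.172 to 0.0991. Scrublet, which scores likely doublets, called 17 of 725 MSA-2 members and 35 of 2055 others. Genes higher in members were long, with a median of 141.9 kb against 25.9 kb for all genes taken, and across the genes taken, without the 6, length and ratio had a Spearman correlation of 0.44 (0.59 in the untreated library), genes not being independent replicates. Rbfox1 spans 1526 kb and Klk8 6.25 kb. The part of RNA composition or gene length in the genes' ratios was not tested.

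Chrm3, Galnt13 and Sh3rf3 lie on chromosomes 13, 2 and 10, so the group is not a neighbourhood of the genome. The bases before the starts of these 3 are shown as examples, a receptor gene and the pair of genes that carry most UMIs. They were picked from rule gene levels, which describe the choice. All 6 genes matched the RefSeq promoter table (build GRCm38.p6), with 9 starts. Both strands of the 250 bases before each start were searched for TGANTCA (AP-1), an interferon response type motif (GAAA on either side of any 2 bases), CACCTG (E-box), GGGCGG (GC box) and CCAAT. The sequences run 5′ to 3′ on the gene's strand, stop where the annotated gene begins, and show matches in capitals. That leaves 206 of the 250 searched bases for Chrm3 and 180 for Galnt13, whose other GC box match lies in the part not shown. Chrm3 is chr13:10360848-10361053 (minus strand), Galnt13 chr2:54436137-54436316 (plus) and Sh3rf3 chr10:58813109-58813358 (plus).
Chrm3: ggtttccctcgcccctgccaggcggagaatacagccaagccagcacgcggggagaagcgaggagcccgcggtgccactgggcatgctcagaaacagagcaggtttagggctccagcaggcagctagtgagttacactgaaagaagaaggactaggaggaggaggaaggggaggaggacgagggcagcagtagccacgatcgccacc
Galnt13: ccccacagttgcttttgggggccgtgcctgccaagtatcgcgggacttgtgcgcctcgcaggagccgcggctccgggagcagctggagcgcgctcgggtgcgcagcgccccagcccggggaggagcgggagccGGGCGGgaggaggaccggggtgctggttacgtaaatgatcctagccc
Sh3rf3: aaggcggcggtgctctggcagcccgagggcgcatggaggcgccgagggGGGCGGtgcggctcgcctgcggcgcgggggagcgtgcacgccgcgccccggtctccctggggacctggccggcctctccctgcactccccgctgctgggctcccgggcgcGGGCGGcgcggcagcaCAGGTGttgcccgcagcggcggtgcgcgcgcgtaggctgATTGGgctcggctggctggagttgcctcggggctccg
GGGCGG was found before starts of Galnt13 and Sh3rf3, CCAAT before starts of Sh3rf3 and Brinp3, and CACCTG before that of Sh3rf3, where the capitals include the reverse strand. Of 32851 promoters 32.7%, 33.8% and 17.2% hold these letters. The first Brinp3 window lies wholly inside the gene as annotated, so it is not a stretch before the gene. TGANTCA, in 6.75% of promoters, and the interferon response type motif, in 2.98%, were in none of the 9 windows. A match is a description and not a binding site, and a missing match says only that these letters are not in the window.

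Most MSA-2 barcodes with the 6 RNAs were not filtered cells at all. The limit on Col1a2 and Dcn kept 2828 of 6833 MSA-2 barcodes and 4786 of 5833 untreated barcodes. Member shares and comparisons between the libraries therefore rest on unlike selections. The 3693 MSA-2 barcodes that pass every other limit with 0.1% to 1% of UMIs from these genes had 327 CPM of the 6 genes. This was above the 239 CPM of members. Of them 2888 (78.2%, 76.8% to 79.5%) were at or above the members' limit. Of the untreated library, 928 such barcodes had 39.2 CPM and 17.0% reached the limit. The members thus hold a minority of the MSA-2 barcodes with this signal.

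Within filtered cells the signal already rose toward that limit. The 6 genes summed to 26.9 CPM in MSA-2 cells with under 0.01% of Col1a2 and Dcn, 31.3 CPM at 0.01% to 0.02%, 41.5 CPM at 0.02% to 0.05% and 152 CPM at 0.05% to 0.1%. It went on to 317 CPM at 0.1% to 0.2% and 359 CPM at 0.2% to 0.5%, and then fell to 241 CPM at 0.5% to 1% and 91.3 CPM above. Dcn stood at 511 CPM in MSA-2 members and 298 CPM in others, and Col1a2 at 42.7 CPM and 42.3 CPM. The fibroblast list (6 of 6 genes at 1 CPM or more, none at 0) summed to 1124 CPM in members, with Dcn the most abundant, and 856 CPM in others, against 1697 CPM and 1225 CPM untreated.

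The barcodes between 0.1% and 0.5% lay near filtered cells in some fibroblast-related values and between the groups in others. They had 5.55 CPM of the Y-linked genes, near the 4.91 CPM of filtered cells and far from the 89.3 CPM of fibroblast barcodes. Dcn made up 96.0% of their Col1a2 and Dcn UMIs, against 42.0% in fibroblast barcodes, though fibroblast barcodes were defined by these genes. Pdgfra stood at 62.5 CPM against 26.4 CPM in filtered cells, Col3a1 at 976 CPM against 427 CPM, Col1a1 at 137 CPM against 71.4 CPM and Lum at 11.1 CPM against 3.46 CPM. MSA-2 barcodes above 1% had 133 CPM of Pdgfra, 10994 CPM of Col3a1, 10139 CPM of Col1a1 and 291 CPM of Lum. In the barcodes between 0.1% and 0.5% Chrm3 stood at 45.0 CPM and Brinp3 at 31.5 CPM, above the 24.0 CPM and 19.4 CPM of members. How much of the signal in members comes from Dcn-bearing cells or from RNA shared between droplets was not tested.

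**Figure D5:**
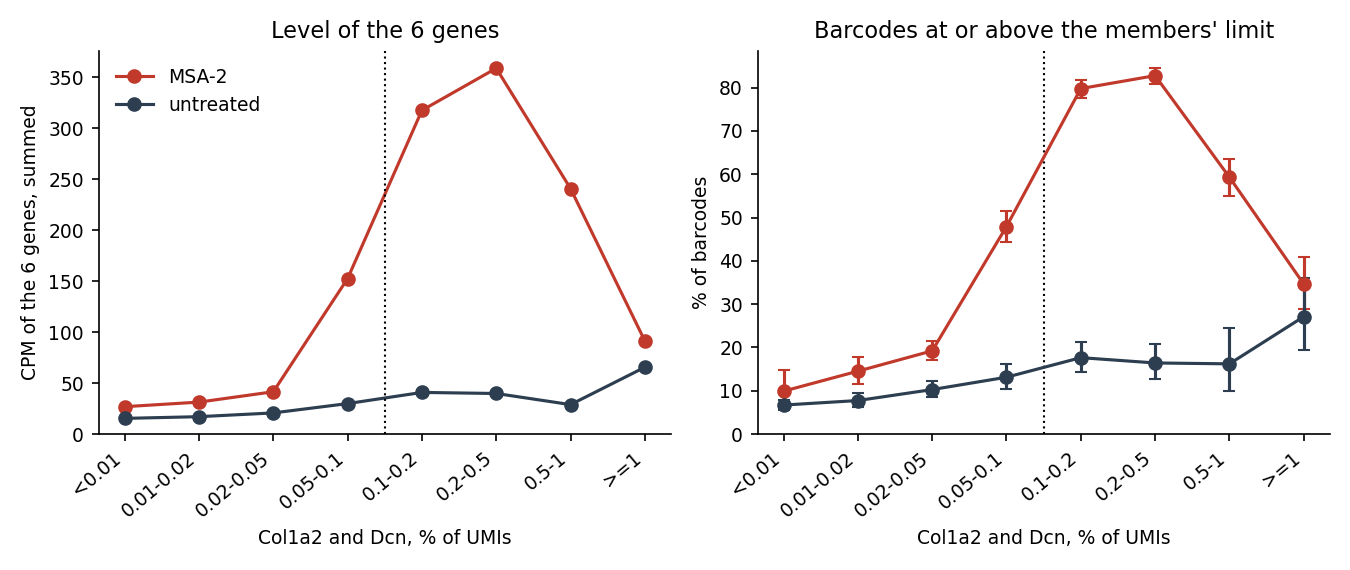
Left, summed CPM of the 6 genes, and right, percentage of barcodes at or above the members' limit with 95% Clopper-Pearson whiskers, by the share of UMIs from Col1a2 and Dcn, for barcodes that pass the other limits. The dotted line marks the 0.1% limit for filtered cells. The MSA-2 library peaks past the limit, at 359 CPM and 82.8%, while the untreated library stays at 65.5 CPM or lower.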

How the data were processed

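The authors deposited 1 table of UMI counts per library, made with Cell Ranger and Seurat as the labels state (versions 7.0.0 and 4.3.0, genome mm10), while the file header and the methods each name other versions; the deposited counts are whole and not normalized, and whether intron reads were counted is not stated. Members and gene lists were chosen with earlier results of these data known. UMIs were summed per group and scaled to CPM; genes at 10 CPM or more over the filtered cells of a contrast were taken, 1 CPM was added, and no test was run, since each condition has 1 library. Named are the 6 genes, listed genes, the highest (rule: 15, of which 14 are given) and 10 lowest genes in MSA-2 members, and the 8 highest and 8 lowest for MSA-2 over untreated within members. Cells were thinned to 8000 UMIs for detection. Clustering used 30 components, 15 neighbors and resolution 1. Scrublet calls served as an alternative. The computation was tested on simulated data. Tools were Python 3.11.15, numpy 2.4.6, scipy 1.17.1, pandas 2.3.3, scanpy 1.11.5, igraph 0.11.9, matplotlib 3.10.9, R 4.3.3 and edgeR 4.0.16.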

Additional observations from a re-analysis of the deposited data

Results flagged for a closer look

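Among the highest and lowest genes of the MSA-2 contrast, 4 had the opposite sign in the untreated library, and the difference between libraries was not tested. Klk8, higher in MSA-2 members, had a log2 ratio of -0.16 in the untreated library, on 2 UMIs in members and with a counting interval from -3.78 to 1.24. Ogn, lower in MSA-2 members, had 0.13 and Tex101 0.028. Gm45589, lower in MSA-2 members at -0.79, had 0.95 in the untreated library.

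Signal was also found in barcodes that the comparisons leave out. MSA-2 barcodes with 0.1% to 0.5% of UMIs from Col1a2 and Dcn had 338 CPM of the 6 genes, against 40.4 CPM in such barcodes of the untreated library.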

How the results depend on the processing

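With 1 pooled library per condition, nothing here separates MSA-2 from other differences between the libraries, and depth limits membership, which rests on 1 UMI in 106 MSA-2 and 108 untreated members. Of the main values recomputed under alternatives, 48 kept close to the reported value and 51 moved, and the cause was not tested. Of the highest and lowest genes in MSA-2 members, none changed sign under the alternatives run on all of them, except in the untreated library. There Klk8 had -0.16, Ogn 0.13, Tex101 0.028 and Gm45589 0.95. Igkc alone was also read without the 5 highest cells of each group. Its sign then turned, with 4.77 CPM in members and 4.52 CPM in others. The alternatives marked as added were chosen after seeing the data.

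The log2 ratio of member shares, 1.62, was 1.99 with the top 10% as members, 1.36 with cells thinned before ranking (19.6% of cells then pass with 1 UMI), 1.42 without Galnt13, 2.18 without Sh3rf3, 2.25 with equal weight per gene, and 4.83 with Col1a2 and Dcn under 0.5% (added).

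Against 280 genes higher and 19 lower, with 12 and 1 of the listed genes, the counts were as follows. The top 10% gave 458 and 40, with 5 listed genes lower, and the top 20% gave 151 and 5, with 7 listed genes higher. The top 15% within each library gave 634 and 92, with 9 listed genes lower. TMM gave 129 and 61, with 7 and 7 listed. Thinning gave 44 lower, with 2 listed genes lower. Adding 10 CPM gave 131 and 5, with 0 listed lower. Genes at 50 CPM or more gave 91 and 4, with 0 listed lower, from fewer genes taken. Genes with at least 1 UMI gave 630 and 67, with 20 listed higher. The untreated library gave 637 higher, with 38 and 3 listed. Among the added alternatives, Col1a2 and Dcn under 0.5% gave 1087 and 226, with 35 and 22 listed. Members with at least 5 UMIs over 3 genes gave 502 and 142, with 14 listed lower. Other cells weighted to the members' depth gave 182 higher. The cluster richest in members gave 1136 and 330, with 23 and 31 listed.

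Within members, adding 10 CPM gave 376 higher and 497 lower against 592 and 799. Matching by depth changed the mean difference between members and other cells from 115 to 107 genes per 8000 UMIs, from 0.564 to 0.0918 percentage points of mitochondrial UMIs, from -2.40 to -1.56 of ribosomal protein UMIs and from 0.172 to 0.0991 of nuclear-retained RNA.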
